A study of Mus musculus with 3 samples.

Results

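The genes described are 10 members of the transforming growth factor β (TGF-β) pathway, taken by name from the 25906 genes of the count tables: the ligand Tgfb1, the receptors Tgfbr1 and Tgfbr2, the signal transducers Smad2, Smad3 and Smad4, the feedback inhibitors Smad7 and Pmepa1, and the corepressors Ski and Skil. They were chosen by name and role, with earlier results of these data known, and all 10 passed the filter on low levels that 7957 genes passed. Natural killer (NK) cells, sorted as live CD45+ lineage-negative NK1.1+ NKp46+ cells from wild-type female mice 9 weeks old on the C57BL/6 background, were profiled in 3 droplet libraries, 1 each for naive mice, for mice taken 6 h after and for mice taken 14 days after an intravenous injection of 100000 PyMT cells. PyMT is a mouse mammary tumor line whose cells lodge and grow in the lung. Cells from lung and from blood shared each library and were told apart by hashtag antibodies, which gives 6 groups. Each group came from 5 mice, whose cells carry no tag of their own in the files. The number of injected cells is that of the labels, and a larger number is also given for the 14-day mice in the text of the study. The naive mice received no tumor cells.

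TGF-β1 is secreted in a latent form and, once released, binds the type II receptor TGFBR2, which recruits and phosphorylates the type I receptor TGFBR1. The receptor pair phosphorylates SMAD2 and SMAD3, which enter the nucleus with SMAD4 and bind DNA. Among the genes that this signal raises are brakes on it. SMAD7 blocks the receptor and marks it for degradation, PMEPA1 holds back the receptor SMADs, and SKI and SKIL (SnoN) repress SMAD target genes until the signal removes them. In NK cells TGF-β restrains cytotoxicity and growth, and it is known for features of tissue residency such as the integrin CD49a, the product of Itga1.

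Cells entered with between 800 and 5000 genes found and no more than 6% of counts from mitochondrial genes. Of these, 3676 came from naive lung, 4367 from naive blood, 4680 from lung and 2746 from blood at 6 h, and 3575 from lung and 2069 from blood at 14 days. Summed counts of molecules (UMIs) ran from 16936897 to 35922737 per group, and the libraries shared between 6 and 16 cell barcodes per pair. All 9 NK cell markers exceeded 10 UMIs per 1000000 (CPM) in every group. The 14-day lung group stood apart in other ways. Its summed red blood cell markers reached about 90 CPM against at most 2.57 in any other group, cells with a UMI of the heat shock genes Hspa1a or Hspa1b made up 15.6% against at most 2.14%, and ribosomal protein genes took 21.3% of its counts against 12.3% in naive lung. Markers of epithelial and tumor cells summed to 6.78 CPM against at most 1.48 elsewhere, with Cdh1 at 4.79 CPM against at most 0.30. The endothelial genes Cdh5 and Cldn5 had 33 and 32 UMIs there and 0 in all other groups. Cells with a UMI of an endothelial, epithelial or fibroblast marker (Pecam1 aside, which 27.02% of all cells held) made up 3.69% of it and at most 1.35% of the others. Markers of type 1 innate lymphoid cells (ILC1), which share the sort gate, summed to 70.9 CPM in lung and 71.9 in blood at 14 days, against 26.2 to 37.2 in the other groups. Myeloid markers differed between libraries in blood as well. Lyz2 had 0.60, 44.9 and 89.3 CPM in naive, 6 h and 14-day blood and 3.37, 26.1 and 13.5 in lung. Chil3 had 0 CPM in naive and 7.38 in 6 h blood. S100a8 and S100a9 went the other way, with 9.41 and 13.3 CPM in naive blood and 1.81 and 0 in 6 h blood. With 1 library per condition no test between conditions was possible, and the time point cannot be told apart from the library. Intervals given are 95% intervals that cover counting error only. They are exact, except those of lung minus blood, which use a normal approximation.

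Promoter sequences of RefSeq on GRCm38.p6 were given for 5 of the genes. The 250 bases before the start are shown for 3 genes, so that their patterns can be set beside their sequence. These are the ligand, the receptor that was higher in lung in every library and the signal transducer at least 1.5-fold lower in 14-day lung. Capitals mark GGGCGG, the box that SP1 binds, and CAGAC, a short SMAD binding element, on either strand, and the strands are those of the genes.
Tgfb1, chr7:25686752-25687001, plus strand: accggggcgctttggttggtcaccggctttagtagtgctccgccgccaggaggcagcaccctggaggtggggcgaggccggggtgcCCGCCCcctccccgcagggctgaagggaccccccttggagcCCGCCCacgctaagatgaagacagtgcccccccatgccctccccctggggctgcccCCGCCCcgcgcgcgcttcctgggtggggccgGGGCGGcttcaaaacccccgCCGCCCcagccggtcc
Tgfbr2, chr9:116175364-116175613, minus strand: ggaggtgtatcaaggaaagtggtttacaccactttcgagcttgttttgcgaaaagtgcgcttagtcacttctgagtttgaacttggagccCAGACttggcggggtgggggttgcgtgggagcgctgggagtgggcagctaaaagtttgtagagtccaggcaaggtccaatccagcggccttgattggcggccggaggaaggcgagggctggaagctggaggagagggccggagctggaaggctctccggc
Smad3, chr9:63757995-63758244, minus strand: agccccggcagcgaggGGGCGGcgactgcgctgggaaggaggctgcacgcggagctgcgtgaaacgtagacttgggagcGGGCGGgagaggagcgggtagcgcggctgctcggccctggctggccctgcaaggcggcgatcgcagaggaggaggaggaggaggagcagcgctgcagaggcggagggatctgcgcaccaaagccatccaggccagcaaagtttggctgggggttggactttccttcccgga
The Tgfb1 window held 5 GGGCGG boxes, the Smad3 window 2 and the Tgfbr2 window 0. Among 32851 promoter windows of that length, 32.7% held at least 1 such box, 16.7% at least 2 and 1.93% at least 5. CAGAC occurred once in the Tgfbr2 window, 160 bases before the start, and in neither of the other windows, while 42.2% of all windows held it. The marked boxes did not overlap each other. The GC content was 75.2% for Tgfb1, 69.2% for Smad3 and 58.4% for Tgfbr2, against a median of 52.4%. The full palindrome of the SMAD element, GTCTAGAC (0.167% of all windows), and the AP-1 site, TGANTCA (6.75%), were in none of the 3. These matches describe letters in the windows and no binding.

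Tgfb1 (ENSMUSG00000002603, protein coding, chromosome 7 from 25687002 to 25705077 of GRCm38), the ligand, was highest in lung at 14 days. Its level was 160.5 CPM in naive lung, 171.8 in lung at 6 h and 342 in lung at 14 days, from 3767, 6172 and 9642 UMIs. In blood it was 106.8, 112 and 100.1 CPM in the same order. Every lung group thus lay above every blood group, and of the neighbours in the order only blood at 6 h and naive blood did not differ beyond counting error. Orders of groups, here and below, compare CPM without centring and can differ from the centred ratios. Ratios were centred on the median log2 ratio of all 7957 genes in the comparison, which was -0.19 for lung and -0.15 for blood at 14 days over naive. On this scale the lung value of Tgfb1 exceeded that of naive mice by 1.28 (95% interval 1.22 to 1.33) at 14 days, or 2.42-fold, and in blood the difference was 0.061 (-0.024 to 0.15).

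**Figure D1:**
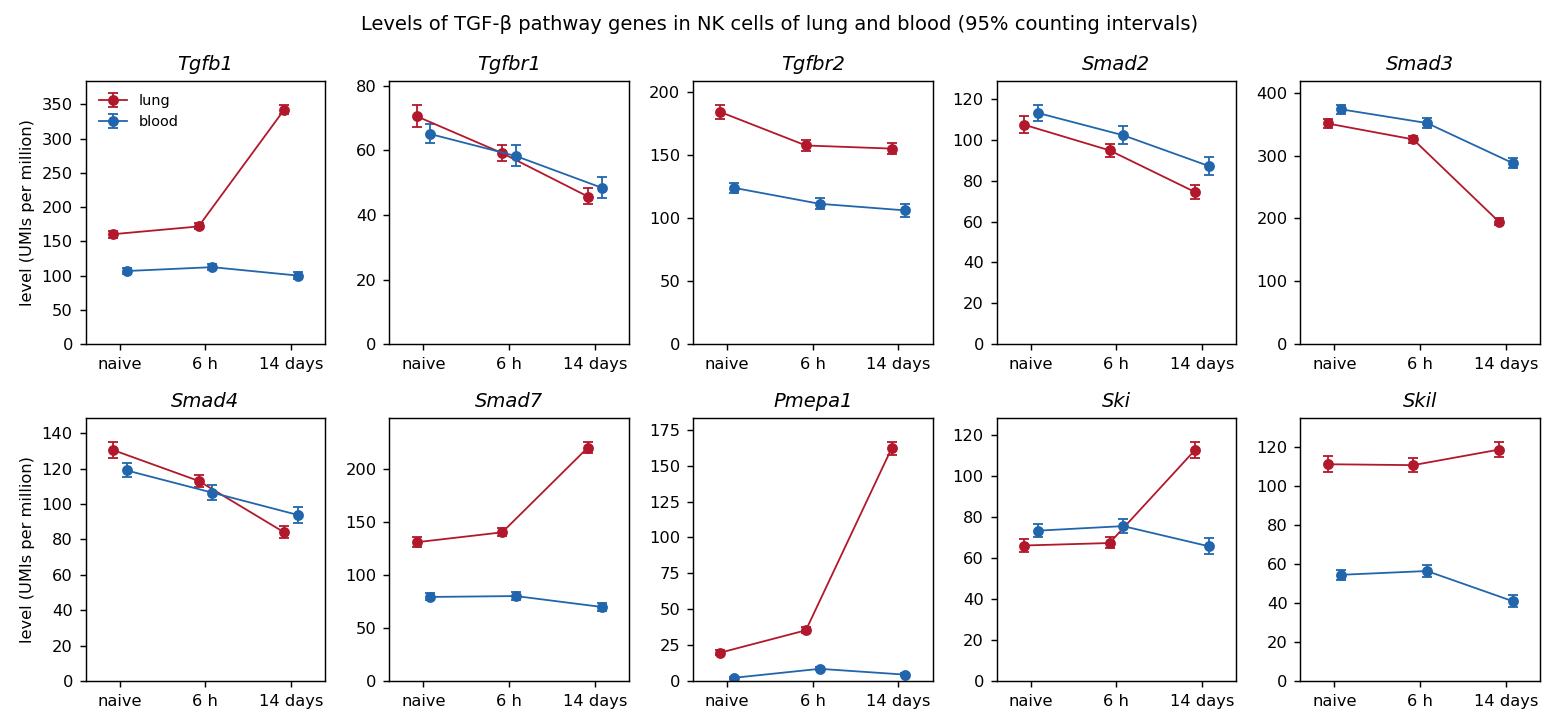
Level of each gene in CPM (vertical axes from 0, each with its own range) in the naive, 6 h and 14-day libraries (horizontal axes), in lung (red) and blood (blue), with exact 95% Poisson intervals. Tgfb1, Smad7, Pmepa1, Ski and Skil have their highest point in lung at 14 days, at 342, 220.0, 162, 112.7 and 118.6 CPM. Smad3, Smad4, Smad2 and Tgfbr1 have their lowest there, at 195, 84.0, 74.4 and 45.7 CPM.

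The receptors did not follow the ligand. Tgfbr2 (ENSMUSG00000032440, chromosome 9 from 116084293 to 116175360), which binds the ligand, had 184, 157 and 155 CPM in naive, 6 h and 14-day lung and 124, 111 and 106 CPM in blood. All lung groups lay above all blood groups, and 6 h and 14-day lung did not differ beyond counting error, nor did 6 h and 14-day blood. Its centred log2 ratio at 14 days over naive was -0.062 (-0.12 to -0.001) in lung and -0.070 (-0.15 to 0.011) in blood. Tgfbr1 (ENSMUSG00000007613, chromosome 4 from 47353222 to 47414931), the kinase that carries the signal into the cell, had 70.5, 59.1 and 45.7 CPM in lung and 65.0, 58.2 and 48.4 CPM in blood. Its levels in the 2 tissues lay close in each library and were lower at 14 days in both, with centred ratios of -0.44 (-0.55 to -0.34) in lung and -0.27 (-0.39 to -0.15) in blood. Neither receptor reached 1.5-fold in either direction.

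Smad3 (ENSMUSG00000032402, chromosome 9 from 63646767 to 63757994), a receptor-activated transducer, was the only member at least 1.5-fold lower in 14-day lung. It had 351.2 CPM in naive lung, 326 at 6 h and 195 at 14 days, and 374, 352 and 288 CPM in blood. Naive lung and 6 h blood did not differ beyond counting error, and the 14-day groups were the lowest of each tissue. The centred ratio at 14 days was -0.66 (-0.71 to -0.61) in lung, a level 1.58-fold lower, and -0.22 (-0.27 to -0.17) in blood. Smad2, its partner with the same role, had 107, 94.8 and 74.4 CPM in lung and 113, 102 and 87.1 CPM in blood, with centred ratios of -0.34 (-0.43 to -0.26) and -0.22 (-0.31 to -0.13). Smad4, the shared partner that both need, had 130.6, 113 and 84.0 CPM in lung and 119.0, 106 and 93.8 CPM in blood, with centred ratios of -0.45 (-0.53 to -0.37) and -0.19 (-0.27 to -0.10). For all 3 transducers and in both tissues the order of CPM over libraries was naive, then 6 h, then 14 days. The median gene was lower in CPM at 6 h than in naive mice as well, at -0.071 in lung and -0.056 in blood. After centring, Smad3 at 6 h over naive was at -0.036 (-0.077 to 0.004) in lung and -0.031 (-0.072 to 0.011) in blood. The centred 6 h intervals of Smad2 and Smad4 lay below 0 in both tissues, with ratios of -0.11 and -0.14 in lung.

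Gene span moved with these lower levels. Among the measured genes, the quintile with the shortest span had a median centred ratio of 0.24 in lung and 0.26 in blood at 14 days over naive, and the quintile with the longest span -0.18 in lung and -0.23 in blood. Smad3 and Tgfbr2 belong to the longest quintile, and Smad2, Smad4 and Tgfbr1 to the next. Relative to the median of its own quintile, Smad3 was at -0.48 in lung, which no longer reached 1.5-fold, and at 0.008 in blood. Smad4 was then at -0.35 in lung and -0.071 in blood, Smad2 at -0.24 and -0.10, and Tgfbr1 at -0.34 and -0.15. Tgfb1 (1.18), Smad7 (0.95), Pmepa1 (3.33) and Ski (1.06) stayed over 1.5-fold in lung on this scale, which was added after the values had been seen.

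The feedback inhibitors were higher in lung at 14 days. Smad7 (ENSMUSG00000025880, chromosome 18 from 75367529 to 75395935) had 130.7, 140.1 and 220.0 CPM in naive, 6 h and 14-day lung, and 79.2, 79.99 and 69.7 CPM in blood. The lung and blood groups did not overlap, and naive and 6 h blood did not differ beyond counting error. Its centred ratio at 14 days was 0.94 (0.87 to 1.00) in lung, or 1.91-fold, and -0.028 (-0.13 to 0.073) in blood. The other inhibitory SMAD gene, Smad6, did not pass the filter on low levels.

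Pmepa1 (ENSMUSG00000038400, chromosome 2 from 173224458 to 173276533) had the widest range of all members, 74.7-fold between the lowest and the highest group. It had 19.7 CPM in naive lung (462 UMIs), 35.3 at 6 h (1268 UMIs) and 162 at 14 days (4565 UMIs). In blood it had 2.17 CPM in naive mice (65 UMIs), 8.42 at 6 h (186 UMIs) and 4.37 at 14 days (74 UMIs). All neighbours in this order differed beyond counting error, and each lung group exceeded each blood group. In 14-day lung Pmepa1 was 9.36-fold higher than in naive lung, a centred log2 ratio of 3.23 (3.09 to 3.37). In blood the ratio at 14 days was 1.17 (0.66 to 1.67), and it became -0.018 when every cell was thinned to 3000 UMIs, where 13 cells of 14-day and 34 cells of naive blood held a UMI, so no direction can be read for blood at 14 days.

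The corepressors differed from each other. Ski (ENSMUSG00000029050, chromosome 4 from 155154075 to 155222592) had 66.0, 67.3 and 112.7 CPM in naive, 6 h and 14-day lung and 73.3, 75.5 and 65.7 CPM in blood. 14-day lung was highest, followed by 6 h and naive blood, which did not differ from each other beyond counting error. Below them came 6 h lung, naive lung and 14-day blood, with no such difference between neighbours. This order is that of CPM. After centring, the ratio of lung over blood was -0.058 (-0.15 to 0.036) in naive mice and -0.070 (-0.16 to 0.021) at 6 h. The centred ratio at 14 days was 0.96 (0.87 to 1.04) in lung, or 1.94-fold, and -0.004 (-0.11 to 0.10) in blood. Skil (ENSMUSG00000027660, chromosome 3 from 31095058 to 31122577) had 111, 110.6 and 118.6 CPM in lung and 54.4, 56.3 and 40.9 CPM in blood. Its lung levels were all above its blood levels, with no difference beyond counting error between naive and 6 h in either tissue. The ratio at 14 days was 0.28 (0.21 to 0.35) in lung and -0.26 (-0.39 to -0.13) in blood, both under 1.5-fold.

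Counted together, 4 of the 10 genes (Tgfb1, Smad7, Pmepa1 and Ski) were at least 1.5-fold higher in 14-day than in naive lung, where 6.75% of all measured genes were, and 1 (Smad3) was at least 1.5-fold lower, where 4.51% were. The study of these data had already named these 4 higher genes as raised in tumor-associated NK cells of metastatic lung. Their count therefore gives no independent support. The median of the members was 0.11, with 5 above 0. In blood 1 member (Pmepa1) was at least 1.5-fold higher, against 2.11% of all genes, and 0 were lower, against 0.578%, with a median of -0.13. That blood count was 0 once cells were thinned to 3000 UMIs. The counts for 14-day lung stayed at 4 and 1 when cells with a Hspa1a or Hspa1b UMI, with a UMI of another blood cell type (red blood cells included) with 2 ILC1 markers or with an endothelial, epithelial or fibroblast marker were left out, the last of these chosen after the values had been seen. Without the cells holding a Hspa1a or Hspa1b UMI, the ratio in lung was 1.36 for Tgfb1, 0.96 for Smad7, 3.23 for Pmepa1 and 0.94 for Ski. With totals that leave out mitochondrial and ribosomal protein genes, and no centring, the counts were also 4 and 1, with Pmepa1 at 3.20 and Smad3 at -0.69.

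At 6 h the picture was narrower, since only Pmepa1 passed 1.5-fold, and it did so in both tissues. Its level was 1.88-fold higher in lung, a centred log2 ratio of 0.91 (0.76 to 1.07), and 4.04-fold higher in blood, at 2.01 (1.60 to 2.44). Of all measured genes, 0.716% were at least 1.5-fold higher in lung at 6 h and 0.478% in blood, and 0.0377% and 0.088% were lower, with 0 members among them. The other 9 genes lay between -0.18 (Tgfbr1) and 0.17 (Smad7) in lung and between -0.10 (Smad4) and 0.13 (Tgfb1) in blood. Medians over the 10 genes were 0.015 in lung and 0.020 in blood. Free RNA in the droplets could put a Pmepa1 UMI into at most 0.44% of lung and 0.47% of blood cells at 6 h, while 14.98% and 3.61% of cells held one. In naive mice the limits were 0.096% and 0.10%, and the shares of cells were 9.44% and 1.24%. The higher level in blood at 6 h rests on 186 UMIs in 99 cells.

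**Figure D2:**
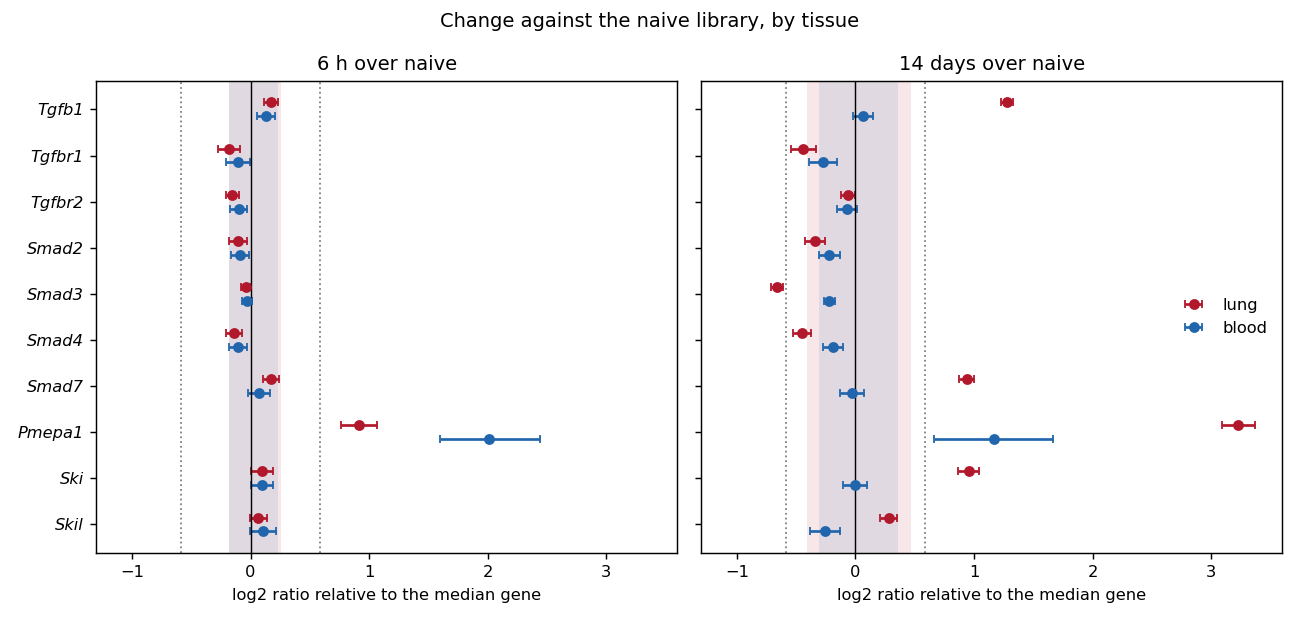
Log2 ratio over the naive library, relative to the median gene (horizontal axis), for 6 h (left) and 14 days (right), in lung (red) and blood (blue), with exact 95% intervals. Shaded bands hold the middle 80% of all measured genes, and dotted lines mark 1.5-fold. At 14 days Tgfb1 (1.28), Smad7 (0.94), Pmepa1 (3.23) and Ski (0.96) lie right of the upper line in lung, and at 6 h only Pmepa1 does.

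The tissues of 1 library differed before any tumor cells were given. By the methods of the study, lungs were dissociated by machine and digested with collagenase, while blood is described only with lysis of red cells. Tissue and preparation thus cannot be told apart in any ratio or test of lung over blood. In naive mice 5 of the 10 genes were at least 1.5-fold higher in lung than in blood (Tgfb1, Tgfbr2, Smad7, Pmepa1 and Skil), against 7.45% of all genes, and 0 were lower, against 2.01%. At 6 h the same 5 genes were higher, against 7.01%, and 0 lower, against 1.72%. At 14 days Ski joined them to make 6, against 6.56%, and 0 were lower, against 2.2%. Medians over the 10 genes were 0.44, 0.39 and 0.77 in the naive, 6 h and 14-day libraries.

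Pmepa1 differed most between the tissues, with centred log2 ratios of lung over blood of 3.27 (2.90 to 3.67), 2.16 (1.94 to 2.39) and 5.32 (4.99 to 5.67) in the naive, 6 h and 14-day libraries. Skil had 1.12, 1.07 and 1.64, and Smad7 had 0.82, 0.90 and 1.76. For Tgfbr2 the ratio was nearly the same in each library, at 0.66, 0.60 and 0.65, and it lay just above the 1.5-fold mark (0.58). Tgfb1 had 0.68 and 0.71 in the first 2 libraries and 1.88 at 14 days, when it came next after Pmepa1. Smad2 lay within 0.13 of 0 in all libraries, while Smad3 had 0.003 and -0.014 and then -0.46 at 14 days. Genes of the stress of dissociation also differed between tissues, with summed levels of 1657 to 1778 CPM in lung and 575 to 699 in blood. Most of the lung sum came from Junb, with 1058 CPM in naive lung and 211 in naive blood. Junb is also in the list of genes raised by TGF-β below. Egr1 was lower in lung in naive mice (23.8 CPM against 48.1 in blood) and at 6 h (20.7 against 33.2), but not at 14 days. All other genes of the stress list were higher in lung in every library. The part of the stress genes in the tissue differences was not tested.

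Lung and blood were also compared over the 3 libraries, with the library as a block in edgeR's quasi-likelihood test, which asks whether the tissue difference exceeds its spread between libraries that differ in condition. At an unadjusted p under 0.05, 0 of the 10 genes were lower in lung, against 18.6% of all measured genes. At an adjusted p under 0.05, 0 were lower, against 9.17%, and 5 were higher, against 13.9%. These were Tgfbr2 (log2 difference 0.63, adjusted p = 0.0018), Skil (1.26, 0.0057), Pmepa1 (3.52, 0.020), Smad7 (1.15, 0.022) and Tgfb1 (1.07, 0.049), each higher in lung in 3 of 3 libraries. Tgfbr2, whose ratio hardly differed between libraries, had the smallest p of the members, though Pmepa1 had the largest difference. Without the naive library, Tgfb1 (adjusted p = 0.094) and Pmepa1 (0.084) no longer passed, and without the 6 h library Tgfb1 (0.086) and Smad7 (0.052) did not. Those 2 fits called 4.21% and 4.27% of all measured genes higher. Without the 14-day library 7 genes passed, with Tgfbr1 and Smad4 added to the 5. That fit called 26.6% of all measured genes higher and 30.0% lower, against 13.9% and 9.17% with all 3 libraries. In the test over all 3 libraries Ski (0.24, adjusted p = 0.46) and Smad3 (-0.16, adjusted p = 0.28) did not pass.

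**Figure D3:**
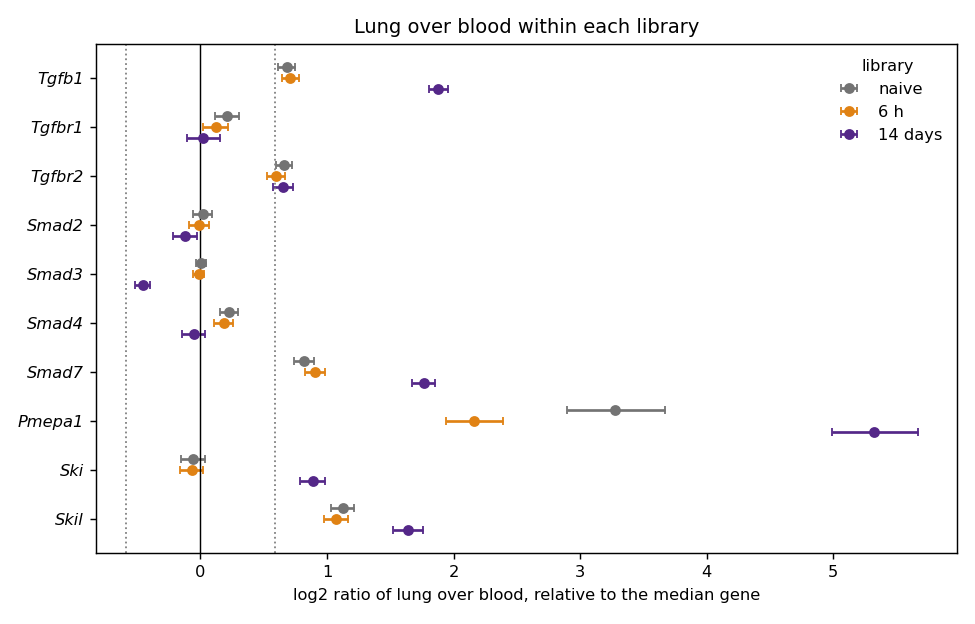
Log2 ratio of lung over blood within each library, relative to the median gene (horizontal axis), for naive mice (grey), 6 h (orange) and 14 days (purple), with exact 95% intervals. Dotted lines mark 1.5-fold. Pmepa1 lies farthest right in every library, at 3.27, 2.16 and 5.32, and Tgfbr2 keeps its place at 0.60 to 0.66.

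The change in lung minus the change in blood sets the time points against each other within shared libraries, so that a shift common to both tissues of a library drops out. At 14 days this difference was 2.06 (1.56 to 2.56) for Pmepa1, 1.22 (1.12 to 1.32) for Tgfb1, 0.96 (0.85 to 1.08) for Smad7, 0.96 (0.82 to 1.096) for Ski and 0.54 (0.39 to 0.68) for Skil. Only 0.113% of all measured genes had a larger difference than Pmepa1, 0.741% than Tgfb1, 1.06% than Smad7, 1.09% than Ski and 4.24% than Skil. The value for Pmepa1 subtracts a blood change of 1.17 that rests on 74 against 65 UMIs. That change was -0.018 after thinning to 3000 UMIs, so the size of this difference is not firm. Tgfbr2 had 0.008 (-0.093 to 0.11). Smad3 had -0.44 (-0.51 to -0.37) and Smad4 -0.26 (-0.38 to -0.15), and 94.1% and 86.1% of genes lay above them. At 6 h the largest difference among the 10 genes was -1.1 (-1.54 to -0.66) for Pmepa1, whose ratio was larger in blood, and the intervals of the other 9 included 0.

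Per cell, after every cell was thinned to 3000 UMIs so that depth was equal, Pmepa1 was found in 5.01% (4.32 to 5.78) of naive, 7.54% (6.80 to 8.34) of 6 h and 27.8% (26.3 to 29.3) of 14-day lung cells. In blood the shares were 0.792%, 1.61% and 0.63%. Cells left out for having fewer than 3000 UMIs numbered from 6 to 86 per group. At least 3 Pmepa1 UMIs were found in 0.0836% of naive and 5.29% of 14-day lung cells.

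Tgfb1 was found in 32.0% of naive, 32.2% of 6 h and 46.0% of 14-day lung cells, and in 25.9%, 27.3% and 23.8% of blood cells. Cells with at least 3 Tgfb1 UMIs made up 3.23% of naive and 13.1% of 14-day lung cells, so both shares were larger. A cell without a UMI may still express the gene. These shares therefore do not separate more expressing cells from a higher level per cell. Smad7 went from 29.7% to 41.5% of lung cells and Ski from 18.0% to 26.7%, while Smad3 went from 58.7% to 40.0%. Skil (26.3% and 26.97%) and Tgfbr2 (39.5% and 34.1%) moved less.

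**Figure D4:**
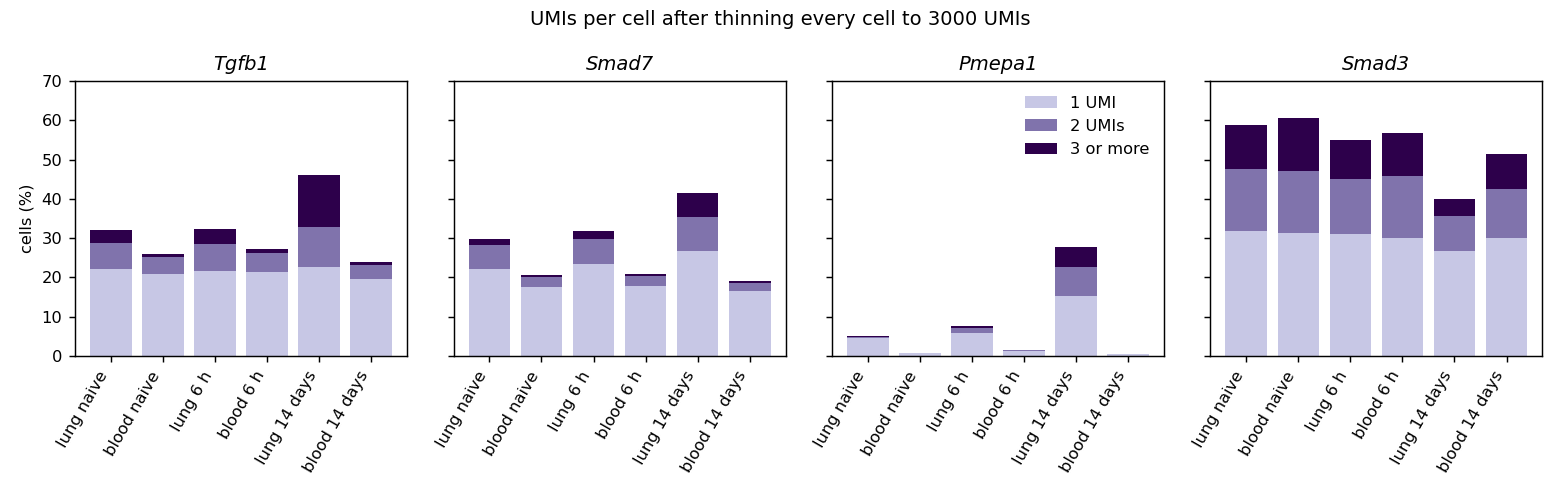
Share of cells (vertical axis, percent) with 1, 2 and 3 or more UMIs of Tgfb1, Smad7, Pmepa1 and Smad3 in the 6 groups, after each cell was thinned to 3000 UMIs. The 14-day lung bar is the tallest for Tgfb1 (46.0%), Smad7 (41.5%) and Pmepa1 (27.8%) and the shortest for Smad3 (40.0%).

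The maturation of NK cells is read from CD27 and CD11b, the product of Itgam, and the lung cells were split by whether a UMI of Cd27 or Itgam was found at 3000 UMIs. The split reads detection and not protein, so a cell without a UMI may still express the gene. In 14-day lung, 8.59% of cells held Cd27 alone, 3.39% both, 35.1% Itgam alone and 52.9% neither, against 6.52%, 5.68%, 50.1% and 37.7% in naive lung. Pmepa1 was higher than in naive lung by 2.98 (2.57 to 3.42), 3.27 (2.69 to 3.90), 3.14 (2.93 to 3.37) and 3.19 (2.98 to 3.42) on the centred log2 scale in these classes in turn. For Tgfb1 the values were 1.80 (1.60 to 2.01), 1.41 (1.18 to 1.65), 1.12 (1.03 to 1.21) and 1.26 (1.17 to 1.34), for Smad7 0.94, 0.56, 0.71 and 1.11, and for Ski 1.20, 1.24, 1.00 and 0.86. Smad3 had -0.85, -0.59, -0.46 and -0.76. Each of these 5 genes differed from naive lung in the same direction in all 4 classes. They are the members that passed 1.5-fold in 14-day lung as a whole, and the classes divide those same cells. The like direction therefore gives no independent support. Ratios by class are not shown for the other members.

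Levels of Pmepa1 in 14-day lung ran from 138 (131 to 146) CPM in cells with Itgam alone to 207 (191 to 225) in cells with Cd27 alone. In naive lung the same classes had 17.2 (14.9 to 19.8) and 30.9 (23.1 to 40.5) CPM. Tgfb1 had 312 CPM with Itgam alone and 415 with Cd27 alone at 14 days, and 158 and 140 in naive lung, so its order between these classes was not the same. Smad3 had the reverse order at 14 days, with 242 CPM with Itgam alone and 136 with Cd27 alone. At 6 h, Pmepa1 was higher than in naive lung in each class as well, by 0.84, 1.13, 0.91 and 0.79.

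Cells with a UMI of Itga1, whose product CD49a marks ILC1 and resident NK cells, numbered 473 in 14-day lung, against 3064 without. Pmepa1 had 278 CPM in the former and 143 in the latter, a centred log2 difference of 0.97 (0.87 to 1.07). Smad7 (0.71), Ski (0.71), Skil (0.65), Tgfb1 (0.58), Tgfbr1 (0.46) and Tgfbr2 (0.44) were higher too, Smad3 was lower (-0.42), and the intervals of Smad2 and Smad4 included 0. The share of all genes higher in such cells is not given here. In naive lung 120 cells held an Itga1 UMI. Pmepa1 (28.6 against 19.5 CPM), Smad7 (161 against 130), Ski (85.9 against 65.3), Skil (139 against 110) and Tgfbr2 (224 against 183) were higher in them as well. So were Tgfbr1 (74.2 against 70.7) and Smad3 (372 against 351). Tgfb1 (142 against 161), Smad2 (78.1 against 108) and Smad4 (126 against 131) were lower. Most of these intervals overlapped. Cells without an Itga1 UMI differed from such cells of naive lung by 3.06 (2.92 to 3.21) for Pmepa1, 1.18 for Tgfb1, 0.83 for Smad7, 0.85 for Ski and -0.61 for Smad3. Itga1 had 70.8 CPM in 14-day lung, so a cell without a UMI may still express it. The 3064 cells without one made up 86.6% of the group, so their ratios had to lie near those of the whole group. This split cannot tell cells that express Itga1 from cells that do not.

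In lung, the gap between cells with and without a Pmepa1 UMI was wider at 14 days than in naive mice for the ligand and the feedback genes. At 3000 UMIs, Tgfb1 was found in 68.0% (65.0 to 70.9) of the 984 cells with a Pmepa1 UMI and in 37.6% (35.7 to 39.5) of the 2553 cells without. In naive lung the shares were 41.1% (33.8 to 48.7) of 180 cells and 31.5% (29.9 to 33.1) of 3410 cells. Smad7 was found in 57.8% against 35.2% at 14 days and in 28.9% against 29.7% in naive lung. Ski (39.7% against 21.7%), Skil (40.7% against 21.7%) and the receptor gene Tgfbr2 (40.8% against 31.6%) were likewise found more often beside Pmepa1 at 14 days. Smad3 went the other way, with 30.8% (27.9 to 33.8) against 43.5% (41.6 to 45.5), while Tgfbr1, Smad2 and Smad4 had overlapping intervals. Itga1 was found in 23.4% against 9.52%. At 6 h Tgfb1 (41.7% against 31.4%) and Smad7 (42.3% against 30.9%) were found more often in the 350 lung cells with a Pmepa1 UMI, and Smad3 (55.1% against 55.0%) was not. Tgfbr2 (44.3% against 33.7%) and Skil (33.1% against 25.1%) were found more often in them too. In blood only 34, 44 and 13 cells held a Pmepa1 UMI in the naive, 6 h and 14-day libraries. Cells of 1 library are not replicates, so these shares describe the 3 libraries only. The share of cells with a Pmepa1 UMI differed between the libraries, so the gaps are not on a like scale.

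**Figure D5:**
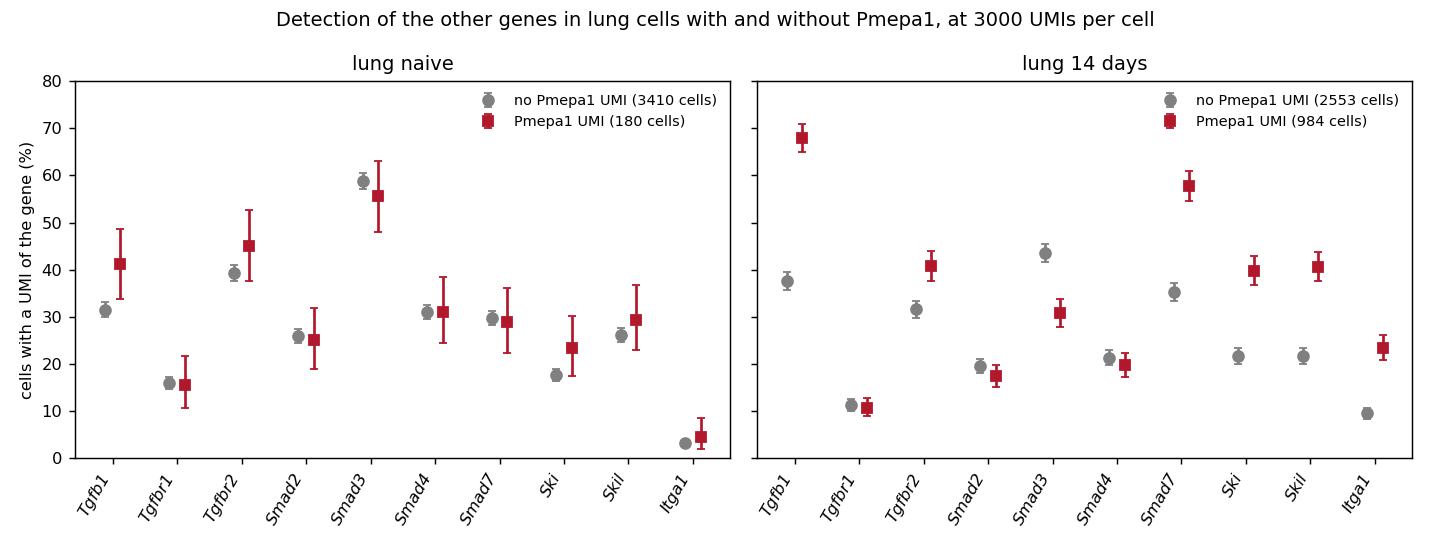
Share of lung cells with a UMI of each gene (vertical axis, percent) among cells with (red squares) and without (grey circles) a Pmepa1 UMI, in naive mice (left) and at 14 days (right), at 3000 UMIs per cell and with exact 95% binomial intervals. At 14 days the squares lie above the circles for Tgfb1 (68.0% against 37.6%), Smad7, Ski, Skil, Tgfbr2 and Itga1 and below for Smad3 (30.8% against 43.5%).

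Taking the members as a set per cell, a lung cell held UMIs of 2.82 of the 10 genes on average in naive mice, 2.70 at 6 h and 2.94 at 14 days, at 3000 UMIs. A blood cell held 2.43, 2.35 and 2.09. The mean hardly moved in lung, but cells with at least 5 of the genes went from 11.4% to 17.2% there and from 6.03% to 4.07% in blood. Cells with none of them made up 3.62% and 4.27% in lung and 5.82% and 9.06% in blood.

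Other genes of the pathway were read from lists, whose counts stand beside 6.75% of all measured genes higher and 4.51% lower in 14-day lung. In 14-day blood these shares were 2.11% and 0.578%. Of 18 genes for ligands and their activation, 3 were measured and 0 reached 1.5-fold in 14-day lung, and Tgfb2 and Tgfb3 lay at or under 4.60 CPM in every group. Furin, a protease that cleaves the precursor of TGF-β, had a centred ratio of 0.44 in lung, Nrros, which holds latent TGF-β at the cell surface, 0.27, and Itgav, a subunit of the integrins that release it, 0.20. Of 12 receptors and coreceptors, 4 were measured. Ldlrad4, which restrains SMAD phosphorylation and is itself raised by TGF-β, was at 0.81 (0.75 to 0.87) in lung and -0.51 (-0.59 to -0.44) in blood, with 237 CPM in 14-day and 154 in naive lung. Bambi, a decoy receptor, was at -1.01 (-1.17 to -0.85) in lung and Acvr2a, an activin receptor, at -0.75 (-0.90 to -0.60).

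Among 10 measured of 14 SMADs and nuclear partners, 0 were higher and 1 was lower in 14-day lung. This was Runx1, at -0.90 (-0.93 to -0.88) in lung and -0.39 in blood. Runx3, a partner of SMADs in lymphocytes, was at 0.45 and 0.13, and Tgif1, a corepressor, at 0.50 and 0.056. None of the 15 measured genes of SMAD and receptor turnover reached 1.5-fold in lung. In blood 1 was lower, against 0.578% of all genes (Nedd4l, named after its value was seen). In the branch that does not run through SMADs, 1 of 8 genes was higher (Tab1, an activator of the kinase TAK1, at 1.14 from 357 against 153 UMIs), while Map3k7, which encodes TAK1, was at -0.41.

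Genes known to be raised by TGF-β in lymphocytes or other cells went in both directions. Of 9 measured, 3 were at least 1.5-fold higher in 14-day lung, against 6.75% of all genes, and 1 lower, against 4.51%, with a list median of -0.042. The higher ones were Itga1 at 2.47 (2.30 to 2.64), Nt5e, which encodes the ectoenzyme CD73, at 1.83 (1.62 to 2.03), and Cd69, a retention and activation marker, at 1.24 (1.12 to 1.35). Nt5e passed the filter on low levels only through 14-day lung, where it had 32.7 CPM. Its place among the 3 thus draws on the group that admitted it. The study of these data had already named Itga1 as raised in tumor-associated NK cells of metastatic lung. The place of Itga1 in the count therefore gives no independent support. The lower gene of this list was Cdkn1a, named after its value was seen. In blood Itga1 alone was higher, at 1.09, against 2.11% of all genes, and Nt5e and Cd69 were at -0.33 and -0.26. Of 12 measured genes known to be lowered by TGF-β, 2 were lower in lung, the perforin gene Prf1 at -0.62 (-0.64 to -0.59) and S1pr5, a receptor for exit from tissue, at -0.65 (-0.73 to -0.56). Myc, which drives growth, was higher, at 1.47 (1.30 to 1.64). In blood Prf1 was at 0.17 and S1pr5 at -0.080. There 2 genes of this list were higher, against 2.11% of all genes (Gzmb and Cx3cr1, named after their values were seen).

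Over the 6 groups, the gene whose profile lay nearest to that of Pmepa1 was Cxcl10, a chemokine gene, with a root mean square difference of 0.38 between the log2 profiles, each taken from its own mean. Cxcl10 had 3.71, 12.6 and 57.4 CPM in naive, 6 h and 14-day lung and 0.400, 2.04 and 1.18 CPM in blood. Without 14-day lung its mean would lie under the filter of 10 CPM. Its rank thus draws on the group that admitted it, where Pmepa1 was highest too. The next were Ahr (0.93), Tigit (0.95), Rgs16 (0.96) and Rgs1 (1.03). Nearest to Tgfb1 were Rnf149 (0.12) and then Smad7 (0.12), Prdx6 (0.13), Usp18 (0.15) and Lpxn (0.19), among 7957 genes. With 6 groups from 3 libraries this is a ranking of likeness and no test.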

How the data were processed

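Per the file headers, the authors deposited UMI counts (raw counts per gene and hashtag, without normalization) for all barcodes, made with Cell Ranger 7.1.0, while the methods state 7.0.1 with GENCODE M23 on GRCm38.p6. Cells were kept with 800 to 5000 genes and at most 6% mitochondrial counts, and assigned to lung (tag B0304) or blood (B0306) where 1 tag held at least 90% of tag counts. The methods pair tissues and tags only by the order in which they name them. Cells with both tags were left out (141 to 342 per library), and doublets within a tissue stayed in. Whether intronic reads were counted is not given in the sources used here.

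UMI counts were summed per group and scaled to 1000000 (CPM). Log2 ratios were centred on the median of the 7957 genes with a mean of at least 10 CPM, with exact conditional intervals. Called genes differ at least 1.5-fold from that median, without a test. Free RNA was limited by the marker of another cell type with the lowest upper limit in barcodes of at most 100 counts (3.02%, 3.96% and 0.729% in the naive, 6 h and 14-day libraries). The genes, the pathway and marker lists and the rule for named genes (the 3 measured genes of each list with the largest absolute ratio in 14-day lung, and the 5 nearest profiles) were chosen with earlier results of these data known. Positions come from GENCODE M21, where 25461 of 25906 gene IDs matched. Counts were also simulated from the pooled profile of the 6 groups with counting error alone. For 14-day over naive lung (7936 genes), 95.4% of intervals held the true ratio. Such counts follow the model of the intervals and hold no spread between cells, mice or libraries. They check the calculation only. Python 3.11.15, numpy 2.4.6, scipy 1.17.1 and pandas 2.3.3 were used. Lung and blood were tested over the 3 libraries on the summed counts of the 7957 genes with edgeR 4.0.16 (R 4.3.3, TMM, quasi-likelihood, library as block, 2 residual degrees of freedom, Benjamini-Hochberg adjustment), with DESeq2 1.42.0 as an alternative. On simulated counts for this comparison (7957 genes), 100% of 2-fold differences were called. Those counts had the same spread for all genes and the same tissue difference in every library. The share called in real data may therefore be lower. 17 alternatives and those added later are given at the end.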

Additional observations from a re-analysis of the deposited data

Results flagged for a closer look

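Skil, the corepressor gene, differed in opposite directions in the 2 tissues at 14 days over naive, at 0.28 (lung) and -0.26 (blood) on the centred log2 scale. Each time point is 1 library that holds both tissues, so the difference was not tested. The interval of lung minus blood, 0.54 (0.39 to 0.68), covers counting error only. Without centring, the ratio in lung was 0.094 and in blood -0.41.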

How the results depend on the processing

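With 1 library per condition, differences between mice and libraries are not measured, and depth limits mainly Pmepa1 in blood (65 to 186 UMIs per group). Under 5 of the 17 alternatives, and under 1 of 2 more added after the values were seen, at least 1 of the 14 counts of members differed by more than 1.5 times. The share of all genes called under the same setting is given in parentheses. A call at 2-fold left 2 members higher (1.83%) and 0 lower (0.855%) in 14-day lung, 0 higher in lung at 6 h (0.113%), and 2 higher in lung than blood in naive mice (3.51%) and 2 at 6 h (3.34%). A call at a mark below 1.5-fold gave 4 lower in 14-day lung (15.3%) and 1 lower in 14-day lung than blood (8.82%). Without centring 3 were lower in 14-day lung (10.4%), and centring within quintiles of gene span, an added alternative, gave 0 (3.77%). Thinning to 3000 UMIs gave 0 higher in blood at 14 days (2.42%), with Pmepa1 at -0.018. Totals without mitochondrial and ribosomal protein genes gave 3 higher in lung than blood in naive mice (6.1%). Over the settings that refit the ratios, lung at 14 days over naive ranged from 1.09 to 1.36 for Tgfb1, 0.75 to 0.99 for Smad7, 3.04 to 3.38 for Pmepa1, 0.77 to 1.06 for Ski and -0.85 to -0.48 for Smad3. Between conditions no replicates exist to pair. Lung over blood in 3 libraries was a test added after the values were seen. There the fit with no replicate block called the same 5 members higher (7.88%) and 0 lower (3.12%). DESeq2 size factors in edgeR gave the same 5 (14.3%) and 0 (9.56%), and DESeq2 itself the same 5 (12.4%) and 0 (6.23%). Without the naive library 3 were higher (4.21%) and 0 lower (0.691%), and without the 6 h library 3 (4.27%) and 0 (0.741%). Without the 14-day library 7 were higher (26.6%) and 0 lower (30.0%).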
